A study of Mus musculus with 8 samples.

Results

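The nuclear-encoded subunits of the respiratory chain and ATP synthase were followed across the hearts of mice with or without Set7, given isoproterenol or saline. Members were chosen by symbol among protein-coding genes of the mouse annotation: Nduf genes other than the Ndufaf assembly factors (complex I), Sdha to Sdhd (complex II), Cyc1 and Uqcr genes (complex III), Cox4 to Cox8 genes (complex IV) and Atp5 genes (complex V). The rule found 87 genes among 55487 identifiers, 38 in complex I, 4 in complex II, 9 in complex III, 18 in complex IV and 18 in complex V. RNA of the whole heart was sequenced in 8 libraries, 2 in each of 4 groups. The groups were Set7KO mice, a global knockout bred from heterozygous crosses, given isoproterenol; Set7KO mice given saline; wild-type (WT) mice given isoproterenol; and WT mice given saline. Isoproterenol, a beta-adrenergic agonist that loads the heart, was given under the skin at 60 mg/kg on 14 consecutive days, and saline over the same days. The sources used here give no age, sex or strain background.

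The respiratory chain sits in the inner mitochondrial membrane. Complexes I and II pass electrons from NADH and succinate to ubiquinone, complex III passes them on to cytochrome c, complex IV reduces oxygen, and complex V uses the proton gradient that complexes I, III and IV build to make ATP. Most subunits come from nuclear genes and are imported, a few of the core subunits come from mitochondrial DNA, and cardiomyocytes, which beat without rest, hold these transcripts at very high levels. Several subunits of complex IV exist in a form found in heart and skeletal muscle and a form found in most other tissues. Nuclear subunit genes are known targets of NRF1, of the ETS factor GABPA and of the estrogen-related receptors (ERR).

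Libraries held 27847069 to 51705705 counts, of which the members took 5.69% to 7.50%. Setd7, which encodes Set7, a lysine methyltransferase, had 3.79 and 3.92 CPM (counts scaled to the normalised library size) in Set7KO isoproterenol libraries and 4.45 and 5.70 CPM in Set7KO saline libraries, against 58.1 and 72.6 CPM in WT isoproterenol libraries and 43.7 and 43.0 CPM in WT saline libraries, so all 8 matched their labelled genotype. The title of Set7KO saline library 2 carries the same letter code as the WT saline titles, and its genes of low GC content were high, as they were in both WT isoproterenol libraries. It also stood apart in markers of neutrophils, which summed to 84.8 CPM against 11.7 CPM or less in the others. Its fibroblast markers summed to 1703 CPM against 2980 CPM or more, and Gsn made up 1241 CPM of that sum. Col1a1, Col3a1, Tcf21 and Gsn were at their lowest in that library, while Dcn, Lum and Pdgfra were not. Cardiomyocyte markers were abundant in every library (Myh6 at 34979 CPM or more), and skeletal muscle markers summed to 0.917 CPM or less. Of the adipocyte markers, Ucp1, a brown adipocyte gene, had 0 counts throughout, and Adipoq and Plin1 had 0.866 CPM or less. Cidea, on the same list, had 29.3 to 132 CPM and was highest in Set7KO isoproterenol (132 and 119 CPM). Atrial markers summed to 1019 CPM in WT saline library 1, 237 CPM in WT isoproterenol library 2, 133 CPM in Set7KO saline library 1 and 15.8 CPM or less in the others. The labels do not say whether the libraries of a group came from separate animals, so p-values measure only the spread between these libraries, which may be technical.

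To show the start regions of members whose levels are described below, RefSeq promoter windows (GRCm38.p6, from 250 bases before to 50 bases after the gene start) were read for the 68 of 87 members that matched by symbol. They gave 72 windows, which were searched on both strands for the NRF1 core CATGCGC, the ETS core CCGGAAG and the ERR core AAGGTCA. The NRF1 core stood in 13 of 72 member windows (18.1%) and in 3.91% of all 32851 windows. The ETS core stood in 16 member windows (22.2%) and in 8.86% of all windows, and the ERR core in 8 (11.1%) and in 4.72%. These counts describe letters in a window and not factor binding. A few contrasting windows follow, 5′ to 3′ on the gene's strand with motif matches in capitals: Uqcrc1 and Uqcr11 of complex III, the isoform pair Cox6b2 and Cox6b1 of complex IV, and Atp5k of complex V, which held all 3 cores.
Uqcrc1 (chr9:108936398-108936697, plus strand): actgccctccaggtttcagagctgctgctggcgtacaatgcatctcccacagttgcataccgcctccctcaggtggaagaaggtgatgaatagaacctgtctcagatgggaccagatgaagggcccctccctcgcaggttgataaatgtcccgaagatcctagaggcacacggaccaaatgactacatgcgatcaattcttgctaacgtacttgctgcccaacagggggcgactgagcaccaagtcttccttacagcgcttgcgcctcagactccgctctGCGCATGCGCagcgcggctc
Uqcr11 (chr10:80406772-80407071, minus strand): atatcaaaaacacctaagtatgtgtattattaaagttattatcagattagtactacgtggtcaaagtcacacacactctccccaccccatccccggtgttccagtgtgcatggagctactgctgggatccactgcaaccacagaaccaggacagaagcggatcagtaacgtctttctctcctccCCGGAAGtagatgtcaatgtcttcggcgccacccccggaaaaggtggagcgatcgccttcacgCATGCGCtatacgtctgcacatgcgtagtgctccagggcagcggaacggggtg
Cox6b2 (chr7:4753045-4753344, minus strand): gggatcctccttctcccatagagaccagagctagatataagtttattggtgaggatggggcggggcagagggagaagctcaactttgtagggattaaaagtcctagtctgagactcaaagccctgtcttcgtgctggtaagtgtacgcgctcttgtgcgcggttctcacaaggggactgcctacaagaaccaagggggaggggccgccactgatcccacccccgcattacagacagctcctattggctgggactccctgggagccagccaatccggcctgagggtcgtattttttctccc
Cox6b1 (chr7:30626065-30626364, minus strand): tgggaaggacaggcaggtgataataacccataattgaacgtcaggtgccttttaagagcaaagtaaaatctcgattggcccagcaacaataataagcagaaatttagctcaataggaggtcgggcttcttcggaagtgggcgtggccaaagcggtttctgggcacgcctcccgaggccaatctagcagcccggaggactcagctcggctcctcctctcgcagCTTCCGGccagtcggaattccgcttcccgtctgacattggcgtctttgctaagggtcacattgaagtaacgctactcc
Atp5k (chr5:108434350-108434649, minus strand): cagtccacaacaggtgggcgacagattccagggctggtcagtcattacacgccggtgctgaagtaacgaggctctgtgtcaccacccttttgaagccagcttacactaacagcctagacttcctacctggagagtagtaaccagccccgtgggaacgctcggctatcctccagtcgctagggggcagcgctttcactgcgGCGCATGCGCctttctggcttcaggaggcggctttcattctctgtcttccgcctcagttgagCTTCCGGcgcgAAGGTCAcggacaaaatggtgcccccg
The Cox6b2 window held none of the 3 cores, and that of its ubiquitous partner Cox6b1 held the ETS core on the opposite strand. In the Uqcrc1 window the NRF1 core overlapped its own reverse complement.

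Of the 87 members, 85 passed the filter on low counts. The other 2 were Cox8c, with 0 counts in every library (an upper limit of 0.0598 to 0.112 CPM at 3 counts, counting error only), and Cox7b2, with 0 to 0.115 CPM. Both are isoforms known from testis. Atp5o has a second identifier with 81 counts in all, which also passed. Per kilobase of exonic length, the most abundant member of complex IV was Cox6a2, the muscle form of subunit VIa, at a mean of 2839 CPM per kb over the 8 libraries. Cox7a1, the muscle form of subunit VIIa, followed at 2460 CPM per kb and exceeded it in both Set7KO isoproterenol libraries (2782 and 4008 CPM per kb, against 2377 and 3275 CPM per kb of Cox6a2) and in WT isoproterenol library 1. Atp5b, the catalytic beta subunit of ATP synthase, led complex V at a mean of 1994 CPM per kb, but in both WT saline libraries Atp5a1, the alpha subunit, was slightly higher. Uqcr11, a small subunit, led complex III at 1312 CPM per kb, and Ndufb9, an accessory subunit of the membrane arm, led complex I at 957 CPM per kb. Sdhb, the iron-sulfur subunit of succinate dehydrogenase, led complex II at 561 CPM per kb.

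Summed over all members, expression was lowest in the WT isoproterenol libraries. The sums were 67892 and 77080 CPM in Set7KO isoproterenol, 68874 and 65584 CPM in Set7KO saline, 52479 and 53112 CPM in WT isoproterenol, and 67853 and 81859 CPM in WT saline. Both WT isoproterenol libraries lay below each of the 6 others, which overlapped among themselves. In whole-heart RNA, fewer cells of a type and less RNA per cell cannot be told apart.

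**Figure D1:**
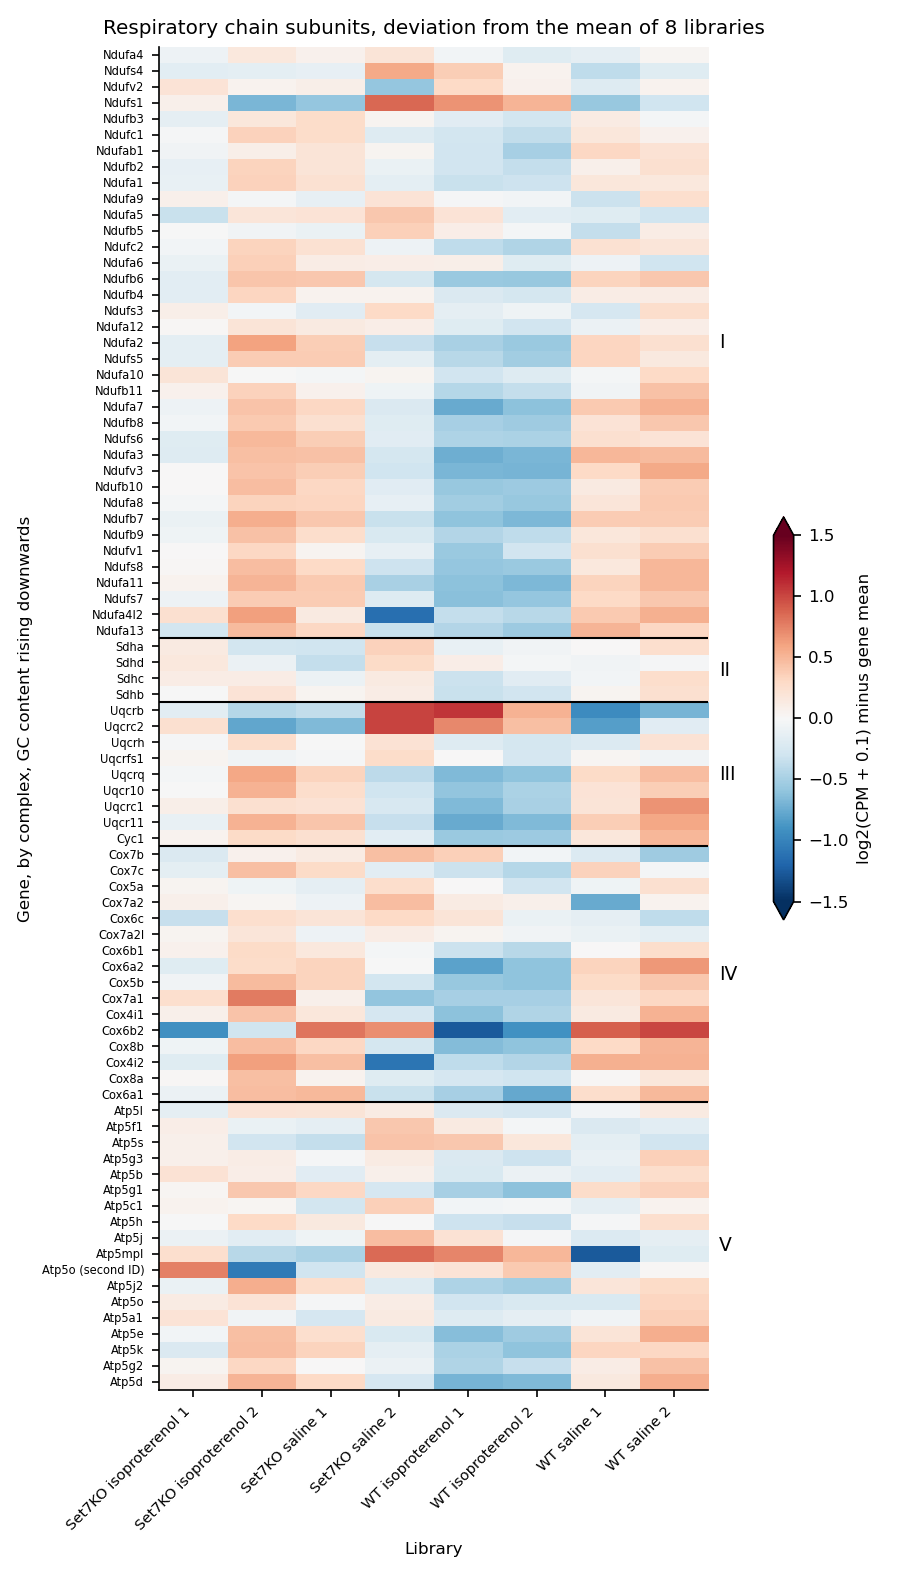
Each row is a member that passed the filter (1 is not shown), ordered by complex (I to V) and, within it, by GC content, each column a library, and the colour gives log2(CPM + 0.1) minus the mean of the gene over the 8 libraries. In WT isoproterenol libraries most rows are below their mean, while Ndufs1, Uqcrb and Uqcrc2 are above it there and in Set7KO saline library 2. Over the 14 members of lowest GC content the median log2 deviation was 0.07 in WT isoproterenol library 1 and -0.12 in library 2.

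The complexes differed in how far their sums lay apart. For complex I the sums were 17020 and 21244 CPM in Set7KO isoproterenol, 19676 and 16521 CPM in Set7KO saline, 13552 and 13510 CPM in WT isoproterenol, and 18982 and 21437 CPM in WT saline. For complex III they were 8372 and 9842 CPM in Set7KO isoproterenol, 9179 and 8062 CPM in Set7KO saline, 6337 and 6256 CPM in WT isoproterenol, and 8827 and 11005 CPM in WT saline. For complex IV they were 10945 and 14380 CPM in Set7KO isoproterenol, 12508 and 10210 CPM in Set7KO saline, 8214 and 8150 CPM in WT isoproterenol, and 12114 and 14210 CPM in WT saline. In these 3 complexes the WT isoproterenol pair was the lowest and lay close together. Complex V summed to 27617 and 27943 CPM in Set7KO isoproterenol, 24177 and 26442 CPM in Set7KO saline, 21128 and 21845 CPM in WT isoproterenol, and 24212 and 30899 CPM in WT saline. Complex II summed to 3938 and 3671 CPM in Set7KO isoproterenol, 3334 and 4350 CPM in Set7KO saline, 3249 and 3351 CPM in WT isoproterenol, and 3718 and 4309 CPM in WT saline. The WT isoproterenol pair was again lowest for complex V, and for complex II it overlapped the Set7KO saline pair.

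**Figure D2:**
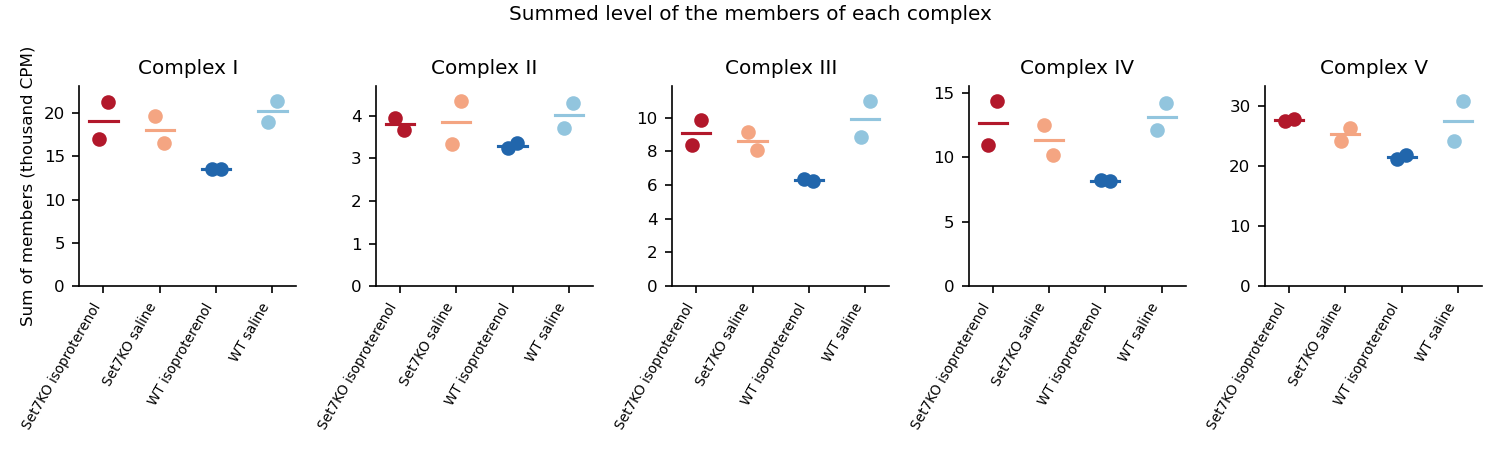
Points are libraries and lines are group means of the summed CPM of the members of each complex over 1000, with axes that start at 0. WT isoproterenol libraries lie below the other groups in complexes I, III, IV and V (13552 and 13510 CPM in complex I) and overlap Set7KO saline in complex II.

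Isoproterenol was first set against saline in WT hearts. Most members were lower after isoproterenol, but with all 8 libraries none passed the test: 0 of 85 members, beside 0% of all 17636 genes, had an adjusted p under 0.05 (edgeR's quasi-likelihood test with Benjamini-Hochberg adjustment), and the smallest adjusted p of a member was 0.0941. At an unadjusted p under 0.05, 41 members were lower, beside 13.3% of all genes, and 3 were higher, beside 18.5%. In 59 members both isoproterenol libraries lay below both saline libraries (33.4% of all genes), and in 15 both lay above (39.3%). The median log2 fold change was -0.52 over the members and 0.06 over all genes. With offsets for GC content and transcript length in each library the member median was -0.43, all genes were at -0.04, and 37 members lower (9.82% of all genes) and 1 higher (5.27%) had an unadjusted p under 0.05; 0 members were called (0.017%).

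These calls depended on the Set7KO saline pair, which is not part of the contrast but shares its estimate of spread. The fits without a library of that pair kept the same WT libraries, so calls that they share are not separate support. Without Set7KO saline library 1, edgeR called 33 members lower (7.89% of all genes) and 2 higher (12.2%). Without Set7KO saline library 2, it called 34 lower (9.11%) and 3 higher (11.6%). The 2 fits shared 33 members called lower, 16 in complex I, 5 in complex III, 8 in complex IV, 4 in complex V and none of the 4 in complex II. With GC and length offsets 0 members were called in either of these fits, beside 37 lower with an unadjusted p below 0.05 with all libraries. DESeq2 on all 8 libraries called 32 lower (7.05%) and 2 higher (8.16%).

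Among complex I genes, 29 of 38 had both WT isoproterenol libraries below both WT saline libraries (33.4% of all genes). The median log2 fold change was -0.64. Ndufa7, an accessory subunit, had 175 and 193 CPM in WT isoproterenol and 389 and 425 CPM in WT saline (log2 fold change -1.14 ± 0.26 SE, edgeR adjusted p = 0.0941). Ndufv3, an accessory subunit of the NADH-oxidising module, had 256 and 254 CPM in WT isoproterenol and 505 and 610 CPM in WT saline (-1.13 ± 0.27, edgeR adjusted p = 0.0941). In both genes the pairs were far apart compared with the distance within a pair. Ndufv1, the subunit that binds NADH and flavin, had 960 and 1159 CPM in WT isoproterenol and 1668 and 1837 CPM in WT saline. Ndufa3, a small accessory subunit, had 237 and 245 CPM in WT isoproterenol and 553 and 547 CPM in WT saline. Ndufs7 and Ndufs8, which carry iron-sulfur clusters, and Ndufab1, the mitochondrial acyl carrier protein, likewise lay lower in WT isoproterenol without overlap. The other way, Ndufs1, the largest core subunit, had 589 and 527 CPM in WT isoproterenol and 248 and 300 CPM in WT saline. Its log2 fold change of 1.03 ± 0.44 did not pass (edgeR adjusted p = 0.153) and was -0.04 with offsets.

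Complex II, whose subunits also serve the citrate cycle, showed the smallest median, -0.29. Sdhb had 984 and 1021 CPM in WT isoproterenol and 1280 and 1467 CPM in WT saline (-0.45 ± 0.19, edgeR adjusted p = 0.143). Sdhc, a membrane anchor, had 474 and 525 CPM in WT isoproterenol and 575 and 707 CPM in WT saline (-0.36 ± 0.20, edgeR adjusted p = 0.238). Neither pair overlapped, and neither gene passed the test with all libraries or without a Set7KO saline library. Sdha, the flavoprotein, stood at 1322 and 1376 CPM in WT isoproterenol and 1438 and 1699 CPM in WT saline. Sdhd, the other anchor, overlapped between the groups.

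Complex III had the median farthest below 0, -0.82, and -0.47 with offsets. Uqcrc1, a core protein, had 1419 and 1604 CPM in WT isoproterenol and 2568 and 3585 CPM in WT saline (-1.03 ± 0.24, edgeR adjusted p = 0.0941). Cyc1, the cytochrome c1 subunit that hands electrons to cytochrome c, had 952 and 958 CPM in WT isoproterenol and 1576 and 1975 CPM in WT saline (-0.89 ± 0.22, edgeR adjusted p = 0.0941). Both were lower in each isoproterenol library than in either saline library. Uqcr11 had 469 and 499.5 CPM in WT isoproterenol and 1024 and 1183 CPM in WT saline. By contrast, Uqcrb, a small ubiquinone-binding subunit, had 164 and 112 CPM in WT isoproterenol and 40.6 and 47.9 CPM in WT saline (1.64 ± 0.42, edgeR adjusted p = 0.0941). Uqcrc2, the other core protein, had 805 and 667 CPM in WT isoproterenol and 276 and 431 CPM in WT saline. Offsets for GC content and length took the log2 fold change of Uqcrb to 0.42 and that of Uqcrc2 to 0.44, so subunits of the same complex stood on both sides of 0 with and without offsets.

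In complex IV, 11 of the 16 members tested lay lower without overlap (33.4% of all genes). Cox6c, Cox7a2, Cox7a2l and Cox7b lay higher without overlap (39.3% of all genes), and Cox5a overlapped. Of these, Cox7b had 515 and 391 CPM in WT isoproterenol and 351 and 279 CPM in WT saline. Cox6a2 had 1055 and 1207 CPM in WT isoproterenol and 2321 and 2886 CPM in WT saline (-1.20 ± 0.24, edgeR adjusted p = 0.0941), and -0.87 with offsets. Cox4i1, the main form of the subunit that binds adenine nucleotides, had 1804 and 2023 CPM in WT isoproterenol and 3041 and 3995 CPM in WT saline. Both genes were lower after isoproterenol in each library pair. Cox8b, the muscle form of subunit VIII, had 415 and 427 CPM in WT isoproterenol and 802 and 927 CPM in WT saline (-1.04 ± 0.27, edgeR adjusted p = 0.0941).

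Complex V had a median of -0.33, with the small central-stalk subunits lowest. Atp5d, the delta subunit, had 678 and 694 CPM in WT isoproterenol and 1218 and 1612 CPM in WT saline (-1.05 ± 0.26, edgeR adjusted p = 0.0941). Atp5e, the epsilon subunit, had 474 and 507 CPM in WT isoproterenol and 838 and 1070 CPM in WT saline (-0.96 ± 0.26, edgeR adjusted p = 0.0952). Neither overlapped between the groups. Atp5k, a dimer-interface subunit, had 346 and 317 CPM in WT isoproterenol and 599.6 and 599 CPM in WT saline. Against these, Atp5mpl, a small subunit, had 219 and 185 CPM in WT isoproterenol and 54.8 and 116 CPM in WT saline (1.24 ± 0.49, edgeR adjusted p = 0.133), and 1.16 with offsets. The catalytic Atp5b overlapped between the groups, with 7134 and 7885 CPM in WT isoproterenol and 7489 and 10038 CPM in WT saline. Atp5g1, Atp5g2 and Atp5g3 encode the same mature ring subunit, and per kilobase Atp5g1 made up 24.9% and 24.1% of their sum in WT isoproterenol and 33.2% and 27.8% in WT saline. Atp5g3 made up 63.6% and 62.8% in WT isoproterenol and 53.5% and 58.9% in WT saline, so its share was the higher in each isoproterenol library.

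**Figure D3:**
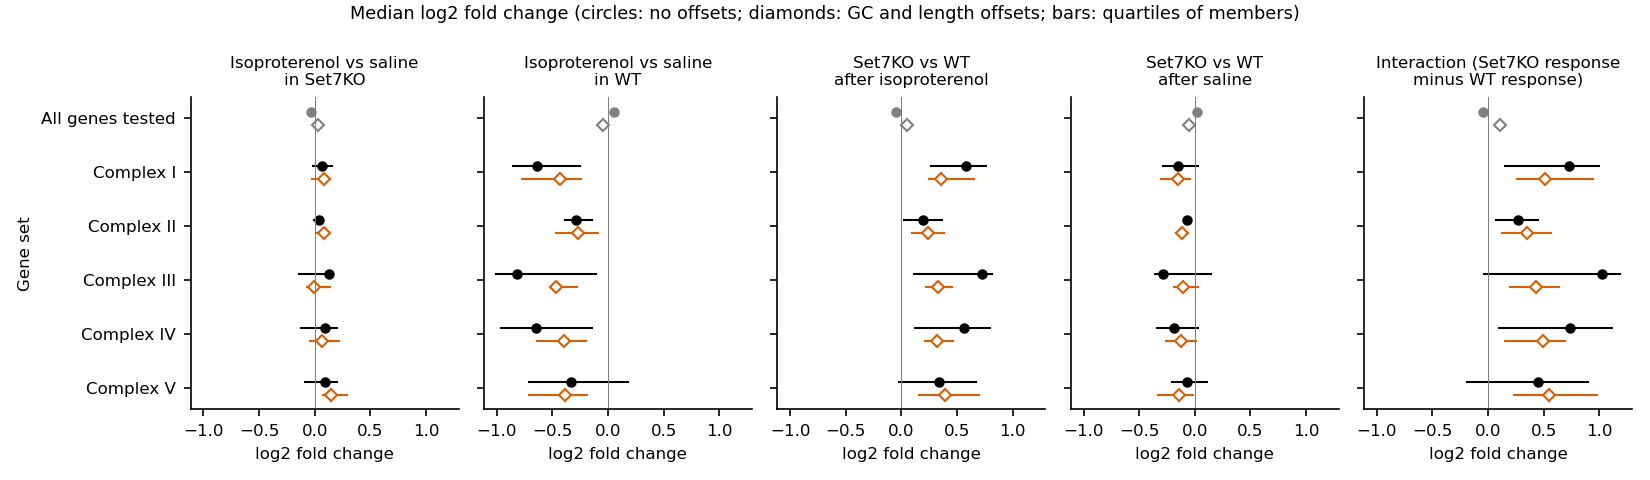
For each comparison, points are the median log2 fold change of all genes tested and of the members of each complex, without offsets (circles) and with GC and length offsets (diamonds), and bars span the quartiles of the members. Isoproterenol against saline in WT shows medians of -0.29 to -0.82 by complex and -0.27 to -0.47 with offsets, while in Set7KO all medians lie within 0.15 of 0.

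In Set7KO hearts the member median stood near 0. With edgeR 0 of 85 members (0% of all genes) had an adjusted p under 0.05, and 1 member higher (3.65% of all genes) and 1 lower (6.01%) had an unadjusted p under 0.05; DESeq2 and limma-voom also called 0. The median log2 fold change was 0.08 over the members, -0.04 over all genes, and 0.09 over the members with offsets, where 2 were higher (5.54%) and 1 lower (3.65%) with an unadjusted p below 0.05. Groups did not overlap in 6 members that were higher (16% of all genes) and 5 that were lower (18.7%). The median rested on single libraries: it was 0.23 without Set7KO isoproterenol library 1 and -0.09 without library 2, and 0.22 without Set7KO saline library 1 and -0.02 without library 2. Without Set7KO saline library 1, Ndufa4l2 alone was called higher (0.969% of all genes).

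Cox7a1 had the largest difference among the members higher in Set7KO isoproterenol apart from Ndufa4l2. It had 1488 and 2144 CPM in Set7KO isoproterenol and 1317 and 833 CPM in Set7KO saline (0.76 ± 0.27, edgeR adjusted p = 0.478). Both isoproterenol libraries were above both saline libraries, with a wide spread in each pair. Ndufa4l2, a hypoxia-inducible relative of Ndufa4, had 38.5 and 50.3 CPM in Set7KO isoproterenol and 35.8 and 14.9 CPM in Set7KO saline (0.81 ± 0.37, edgeR adjusted p = 0.533). Set7KO saline library 2 was by far the lowest of the 4, and without it the log2 fold changes were 0.32 for Ndufa4l2 and 0.47 for Cox7a1. Ndufa4l2 overlaps Shmt2 on the opposite strand, and reads of the pair cannot be told apart without strand. Ndufa4 itself, named with complex I and known to belong to complex IV, had 607 and 713 CPM in Set7KO isoproterenol and 665 and 728 CPM in Set7KO saline.

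Members that lay lower in Set7KO isoproterenol than in Set7KO saline without overlap were Ndufa5, Ndufs4, Cox6b2, Cox7b and Atp5j. Ndufs4, an accessory subunit whose loss in mice gives a Leigh-like disease, had 98.7 and 99.9 CPM in Set7KO isoproterenol and 101 and 164 CPM in Set7KO saline (-0.42 ± 0.27, edgeR adjusted p = 0.632), and 0.09 with offsets. Atp5j, coupling factor 6 of the peripheral stalk, had 269 and 257 CPM in Set7KO isoproterenol and 275 and 397 CPM in Set7KO saline (-0.35 ± 0.23, edgeR adjusted p = 0.645). In both genes Set7KO saline library 2 was far above the other 3, and without it the log2 fold changes were -0.03 for Ndufs4 and -0.06 for Atp5j. Uqcrb had 69.6 and 57.9 CPM in Set7KO isoproterenol and 60.2 and 158 CPM in Set7KO saline, and Uqcrc2 had 576 and 284 CPM in Set7KO isoproterenol and 308 and 983 CPM in Set7KO saline; without saline library 2 their log2 fold changes were 0.09 and 0.48 in place of -0.77 and -0.59. Ndufv2, an iron-sulfur core subunit, went the other way in that library, at 205 CPM against 270 CPM or more in the other 7. Of complex II, Sdha had 1574 and 1183 CPM in Set7KO isoproterenol and 1158 and 1823 CPM in Set7KO saline, and Sdhc had 637 and 636 CPM in Set7KO isoproterenol and 555 and 651 CPM in Set7KO saline, each with overlap.

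Set7KO and WT hearts were next compared after isoproterenol, where 70 of 85 members had a fitted value above 0 and 15 below. The share of all genes above 0 was not computed. This comparison shares the WT isoproterenol libraries with the one in WT, so the values are given side by side and not as separate support. Again 0 of 85 members passed in edgeR (0.00567% of all genes did, which is Setd7), with a smallest adjusted p of 0.229, and 39 members were higher (7.22% of all genes) and 1 lower (12.7%) with an unadjusted p below 0.05. Both Set7KO libraries lay above both WT libraries in 61 members (31.8%) and below them in 8 (36.3%). The member median was 0.53, with all genes at -0.05. With offsets it was 0.33, and 29 members were higher (5.62%) and 0 lower (2.52%) with an unadjusted p below 0.05. DESeq2 called 2 members higher, Atp5d and Cox7a1 (0.323% of all genes were called higher).

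Cox7a1 had 1488 and 2144 CPM in Set7KO isoproterenol and 889 and 889 CPM in WT isoproterenol (1.03 ± 0.27, edgeR adjusted p = 0.229). Atp5d had 1192 and 1570 CPM in Set7KO isoproterenol and 678 and 694 CPM in WT isoproterenol (1.01 ± 0.26, edgeR adjusted p = 0.229). For both, the higher WT library was well under the lower Set7KO library. Ndufa7 had 280 and 397 CPM in Set7KO isoproterenol and 175 and 193 CPM in WT isoproterenol (0.88 ± 0.26, edgeR adjusted p = 0.229). Uqcrq, a small subunit of complex III, had 869 and 1321 CPM in Set7KO isoproterenol and 560 and 583 CPM in WT isoproterenol (0.94 ± 0.29, edgeR adjusted p = 0.229). Set7KO isoproterenol library 2 was the higher of its pair in all 4 of these genes. Cox4i1 had 2918 and 3725 CPM in Set7KO isoproterenol and 1804 and 2023 CPM in WT isoproterenol, and Atp5g1 had 1351 and 1753 CPM in Set7KO isoproterenol and 937 and 865 CPM in WT isoproterenol. Sdhb, with 1237 and 1437 CPM in Set7KO isoproterenol and 984 and 1021 CPM in WT isoproterenol, differed less (0.42 ± 0.19, edgeR adjusted p = 0.256).

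After saline the genotypes were closer. In edgeR 0 of 85 members passed (0.00567% of all genes, again Setd7), 2 were higher (7.83%) and 0 lower (2.46%) with an unadjusted p below 0.05, and DESeq2 and limma-voom called 0. The median was -0.12, with all genes at 0.02, and -0.13 with offsets, where 0 members were higher (2.79%) and 3 lower (3.12%) with an unadjusted p below 0.05. Without offsets, 11 members were higher without overlap (19.6%) and 11 lower (18.3%). Uqcrb had 60.2 and 158 CPM in Set7KO saline and 40.6 and 47.9 CPM in WT saline (1.30 ± 0.42, edgeR adjusted p = 0.483), and 0.23 with offsets. Cox7b, a small complex IV subunit, had 437.6 and 549 CPM in Set7KO saline and 351 and 279 CPM in WT saline (0.65 ± 0.24, edgeR adjusted p = 0.483), and -0.16 with offsets. Ndufa5, an accessory subunit, had 296 and 339 CPM in Set7KO saline and 226 and 209 CPM in WT saline, and Cox6c, another small complex IV subunit, had 499 and 534 CPM in Set7KO saline and 397 and 335 CPM in WT saline. Each was higher in both Set7KO libraries. Ndufa4l2 had 35.8 and 14.9 CPM in Set7KO saline and 43.0 and 47.3 CPM in WT saline (-0.84 ± 0.37, edgeR adjusted p = 0.484). Without Set7KO saline library 1, so with library 2 alone in that group, edgeR called 3 members: Ndufa4l2 and Cox4i2 lower (1.74% of all genes) and Uqcrb higher (3.9%). Without library 2 it called 0, and the log2 fold changes were -0.31 for Ndufa4l2, 0.47 for Uqcrb, 0.50 for Cox7b, 0.46 for Ndufa5 and 0.47 for Cox6c.

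Whether the response to isoproterenol differed by genotype was tested as an interaction, the Set7KO response minus the WT response. No member passed in edgeR (0 of 85, 0% of all genes), with a smallest adjusted p of 0.0887, and 34 were higher (12% of all genes) and 5 lower (18.6%) with an unadjusted p below 0.05. The member median was 0.63, with all genes at -0.05; with offsets it was 0.52, all genes were at 0.10, and 30 members higher (8.3%) and 0 lower (5.01%) had an unadjusted p under 0.05. DESeq2 called 23 members higher (4.37%) and 1 lower (8.53%). Without Set7KO saline library 1, edgeR called 31 higher (13.7%) and 5 lower (18%), and without library 2 it called 0. By complex the medians were 0.73, 0.27, 1.02, 0.74 and 0.45 in complexes I to V. Uqcrb stood at -2.41 ± 0.59 (edgeR adjusted p = 0.0887), at -0.43 with offsets, and at -1.54 without Set7KO saline library 2. Ndufa4l2 stood at 1.67 ± 0.53 (edgeR adjusted p = 0.107), and at 1.19 without that library. Atp5d stood at 1.32 ± 0.37 (edgeR adjusted p = 0.0923, and 0.52 with offsets). Uqcrc1 stood at 1.18 ± 0.34 (edgeR adjusted p = 0.0940, and 0.68 with offsets). Of the 59 members whose WT pairs lay apart and lower after isoproterenol, 51 had a fitted value above 0 in Set7KO. The same share over all genes was not computed. Over all genes, too, the change ran opposite ways with GC content (rank correlation -0.73 in WT and 0.51 in Set7KO). The count is therefore not read as particular to the members.

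Averaged over the genotypes, only Cox6b2 was lower in all 4 isoproterenol libraries than in all 4 saline libraries (1 of 85 members, 2.01% of all genes). No member was higher in all (2.11%). Neither count exceeded the share over all genes. Cox6b2 encodes the testis form of a complex IV subunit that faces the intermembrane space, and its level in these hearts was low. Its CPM were 0.512 and 0.842 in Set7KO isoproterenol and 1.92 and 1.77 in Set7KO saline, and 0.386 and 0.520 in WT isoproterenol and 2.05 and 2.22 in WT saline. These rest on 17 and 23 counts in Set7KO isoproterenol, 59 and 89 in Set7KO saline, 17 and 18 in WT isoproterenol, and 55 and 67 in WT saline. The averaged log2 fold change was -1.84 ± 0.27, with an edgeR adjusted p of 0.0859 that missed the threshold; over the other settings the adjusted p ran between 0.00126 (DESeq2) and 0.482 (without WT isoproterenol library 1). By genotype it was -1.45 ± 0.38 in Set7KO (edgeR adjusted p = 0.465) and -2.24 ± 0.39 in WT (edgeR adjusted p = 0.0941). In the averaged contrast 0 members passed in edgeR (0.051% of all genes), 13 were lower (4.9%) and 0 higher (4.5%) with an unadjusted p below 0.05, and DESeq2 called Cox6b2 and Cox6a2 lower (0.93%). The median was -0.20, with all genes at 0.02. With offsets 8 members were lower (5.42%) and 0 higher (5.16%) with an unadjusted p below 0.05, and 0 were called (0.0624%). Set7KO against WT averaged over treatments gave 0 members in edgeR and in DESeq2 (0.00567% of all genes in edgeR), 0 higher (0.987%) and 0 lower (0.578%) with an unadjusted p below 0.05, and a member median of 0.20.

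Isoform pairs within complex IV were compared as log2 ratios of counts per library. The Cox6b1 to Cox6b2 ratio was 10.76 and 10.27 in Set7KO isoproterenol, 8.95 and 8.87 in Set7KO saline, 10.78 and 10.26 in WT isoproterenol, and 8.71 and 8.85 in WT saline. It was higher after isoproterenol in both genotypes with no overlap, mostly through Cox6b2, since Cox6b1 had 888 and 1041 CPM in Set7KO isoproterenol and 950 and 833 CPM in Set7KO saline. The Cox8b to Cox8a ratio was 1.84 and 1.93 in Set7KO isoproterenol, 2.18 and 1.85 in Set7KO saline, 1.52 and 1.61 in WT isoproterenol, and 2.20 and 2.26 in WT saline. The Cox7a1 to Cox7a2 ratio was 2.05 and 2.62 in Set7KO isoproterenol, 2.03 and 0.82 in Set7KO saline, 1.26 and 1.30 in WT isoproterenol, and 2.81 and 2.14 in WT saline. Both muscle-form ratios were lowest in the WT isoproterenol pair, apart from the Cox7a1 ratio of Set7KO saline library 2, which was lower still. GC content was 55.0% for Cox7a1 and 47.2% for Cox7a2, and 55.8% for Cox8b and 58.6% for Cox8a. The Cox6a2 to Cox6a1 ratio stayed between 3.89 and 4.52 in all 8 libraries. Ratios of Ndufa4 to Ndufa4l2 were 3.98 and 3.83 in Set7KO isoproterenol, 4.22 and 5.62 in Set7KO saline, 4.60 and 4.52 in WT isoproterenol, and 3.75 and 3.79 in WT saline. Ndufa4 had a GC content of 43.0% and Ndufa4l2 one of 59.5%. Ratios of Cox4i1 to Cox4i2, a form known from hypoxia, spanned 7.11 to 8.37. No ratio was corrected for GC content, and the part of base composition in the ratios was not tested.

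**Figure D4:**
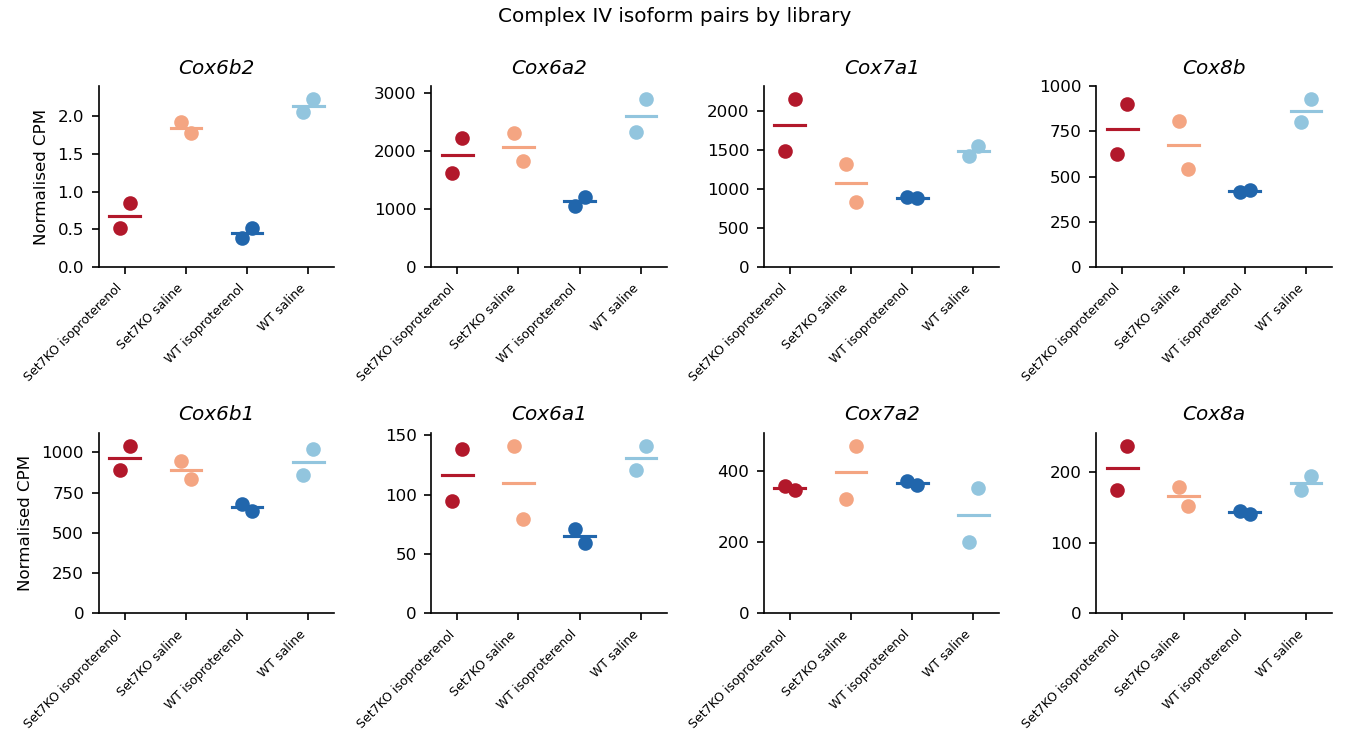
Points are libraries and lines are group means of normalised CPM for 4 complex IV isoform pairs, the tissue-restricted form above and the common form below, with axes that start at 0. Cox6b2 is lower in both isoproterenol groups (0.386 to 0.842 CPM against 1.77 to 2.22 CPM after saline), while Cox6a2, Cox7a1 and Cox8b are at their lowest group mean in WT isoproterenol.

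Member changes followed GC content in the way those of all genes did. In WT, the rank correlation between log2 fold change and GC content was -0.75 over the 85 members and -0.73 over all genes, and in Set7KO it was 0.60 and 0.51; the points share the same libraries, so no p is given. With offsets the member values were 0.21 in WT and -0.41 in Set7KO. Genes were put in 5 GC classes. In the lowest class the WT median was 0.09 over 14 members against 1.17 over all genes, and in the highest it was -0.91 over 15 members against -0.60. In each of the 5 classes the member median was below that of all genes in the WT comparison. Members had a median GC content of 51.4%, against 50.6% over all genes with a value, and a median exonic length of 1569 bases against 3622. Y-linked genes, low in GC, summed to 8.76 and 11.3 CPM in Set7KO isoproterenol, 16.0 and 36.2 CPM in Set7KO saline, 33.8 and 34.3 CPM in WT isoproterenol, and 11.2 and 6.43 CPM in WT saline, the same libraries being high. All 8 libraries held Y-linked transcripts, while Xist, expressed in females, had 0.299 CPM or less, so they read as male. The part of base composition in the member results was not tested beyond the offsets.

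**Figure D5:**
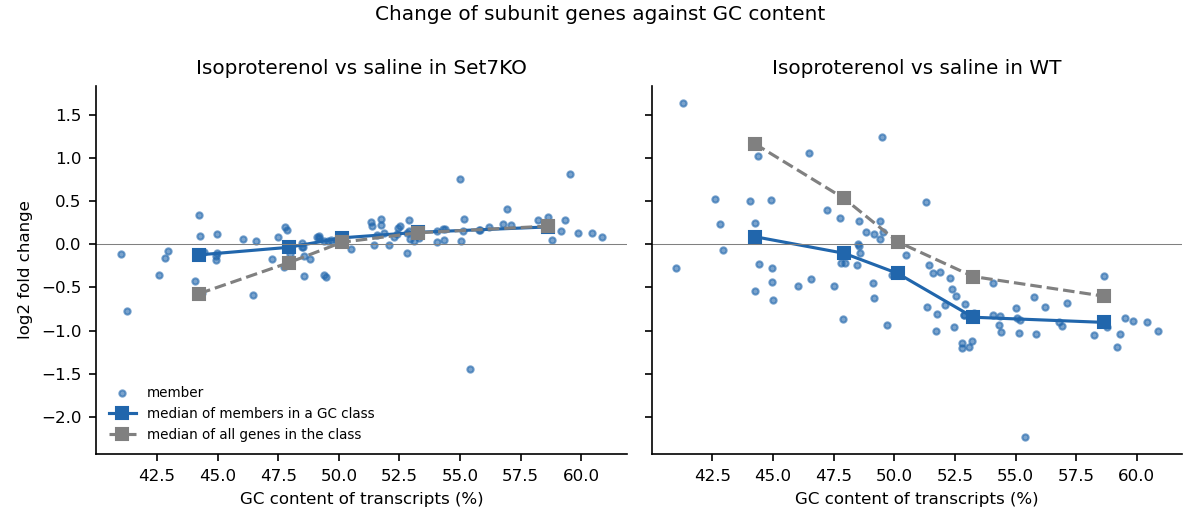
Small points are members, with GC content of their transcripts (%) on the x axis and log2 fold change of isoproterenol against saline on the y axis, in Set7KO (left) and WT (right); squares joined by lines are medians in 5 GC classes for members and for all genes. In WT the member median is 0.09 in the lowest class and -0.91 in the highest, and the member medians lie below those of all genes in each class.

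Cardiomyocyte markers were read beside the members, and none passed the edgeR test. In the WT comparison 5 of 12 were lower (13.3% of all genes) and 1 higher (18.5%) by the unadjusted test, with a median of -0.38. With offsets it was -0.09, beside -0.04 over all genes, and 7 markers were lower and 5 higher by sign. They summed to 106794 and 114573 CPM in Set7KO isoproterenol, 102174 and 101542 CPM in Set7KO saline, 87382 and 89385 CPM in WT isoproterenol, and 109186 and 130458 CPM in WT saline, and none was at 0. The summed markers of erythroid cells, macrophages and lymphocytes were also lowest in WT isoproterenol. Of the single markers, 4 of 6, 2 of 5 and 3 of 3 were lower with an unadjusted p below 0.05 against WT saline. Macrophage markers summed to 156 and 233 CPM in Set7KO isoproterenol, 219.9 and 161.05 CPM in Set7KO saline, 125 and 111 CPM in WT isoproterenol, and 204 and 264 CPM in WT saline. Among them Csf1r, C1qa and Cd68 lay lower in WT isoproterenol than in WT saline without overlap, and Adgre1 overlapped. Mrc1 went the other way, with 11.96 and 9.55 CPM in WT isoproterenol and 4.03 and 6.66 CPM in WT saline. Lymphocyte markers summed to 0.908 and 0.635 CPM in WT isoproterenol and to between 2.85 and 5.57 CPM in the other libraries. Erythroid sums were 4351 and 2681 CPM in Set7KO isoproterenol, 4232 and 10521 CPM in Set7KO saline, 1519 and 1254 CPM in WT isoproterenol, and 3768 and 4261 CPM in WT saline. The part of these cells in the member results was not tested.

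Other mitochondrial genes were read beside the members in the WT comparison, and none passed the edgeR test. The counts by the unadjusted test that follow stand beside 13.3% of all genes lower and 18.5% higher. Of 44 assembly factors, 8 were lower and 4 higher by the unadjusted test, with a median log2 fold change of -0.21; Uqcc2, needed for complex III assembly, was at -0.95, Sco2, a copper chaperone of complex IV, at -0.85 and Ecsit, a complex I assembly factor, at -0.69. Of 78 mitochondrial ribosomal proteins, 3 were higher and 26 lower, with a median of -0.21 and of -0.35 with offsets. Mrpl28, of the large subunit, was at -1.23 ± 0.29 (edgeR adjusted p = 0.0941), and Mrpl12 at -1.08. Citrate cycle enzymes had 2 higher and 2 lower of 13, with a median of -0.17; Idh2 and Mdh2 were at -0.73 and -0.72, and Sucla2 at 1.59. The import machinery had 0 higher and 3 lower of 11, and carriers and exchange proteins 0 higher and 1 lower of 9, with medians of 0.04 and -0.05; Tomm40, the import channel, was at -0.85. In the same lists the Set7KO comparison had between 0 and 2 genes with an unadjusted p below 0.05, beside 3.65% of all genes higher and 6.01% lower.

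The 13 subunits encoded by mitochondrial DNA were read in the same way, without a test against the nuclear members. They summed to 32073 and 34845 CPM in Set7KO isoproterenol, 27743 and 38159 CPM in Set7KO saline, 52187 and 39211 CPM in WT isoproterenol, and 18693 and 23834 CPM in WT saline. Both WT isoproterenol libraries were above both WT saline libraries, opposite to the sums of nuclear subunits in the same libraries. In WT 8 of 13 were higher (18.5% of all genes) and 0 lower (13.3%) by the unadjusted test. Their median was 0.97, but with GC and length offsets the median was -0.59. Of mt-Atp8, an accessory ATP synthase subunit, there were 57.8 and 80.5 CPM in Set7KO isoproterenol, 74.2 and 60.9 CPM in Set7KO saline, 94.4 and 94.6 CPM in WT isoproterenol, and 36.2 and 38.3 CPM in WT saline. Its log2 fold change in WT was 1.34 ± 0.23 (edgeR adjusted p = 0.0941) and -0.08 with offsets. The direction for these genes therefore turned with the offsets, as it did not for the median of nuclear members.

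Regulators of mitochondrial biogenesis gave no common direction. In WT 2 of 16 were lower (13.3% of all genes) and 3 higher (18.5%) by the unadjusted test. The median was 0.42, and -0.10 with offsets. Ppargc1a, the coactivator PGC-1 alpha, had 29.2 and 15.1 CPM in Set7KO isoproterenol, 13.0 and 122 CPM in Set7KO saline, 49.6 and 55.9 CPM in WT isoproterenol, and 15.7 and 24.2 CPM in WT saline. It was higher in WT isoproterenol than in WT saline (1.41 ± 0.82, edgeR adjusted p = 0.252) and highest of all in Set7KO saline library 2. Esrra, the receptor ERR alpha, had 267 and 304 CPM in Set7KO isoproterenol, 275 and 238 CPM in Set7KO saline, 192 and 194 CPM in WT isoproterenol, and 302 and 302 CPM in WT saline. Its WT values lay apart and lower after isoproterenol (-0.65 ± 0.19, edgeR adjusted p = 0.0972), and -0.11 with offsets. Tfam, which packages and transcribes mitochondrial DNA, had 28.0 and 20.2 CPM in WT isoproterenol and 14.3 and 9.58 CPM in WT saline (1.01 ± 0.30, edgeR adjusted p = 0.0967), and 0.07 with offsets.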

How the data were processed

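Counts per gene for 8 mouse heart libraries were deposited by the authors as 1 table of whole numbers, not normalised. Per the labels' protocols, RNA was extracted with TRIzol, libraries were made with a stranded mRNA kit and read in single 75-cycle runs. HISAT2, HISAT, StringTie, edgeR and the GRCm38 genome are named per the submitters' processing notes; the sources used here state neither their versions and roles nor whether counting used strand. Symbols, lengths and GC content came from GENCODE M21 (GRCm38), which named 55227 of 55487 identifiers. Without stated strand counting, reads of overlapping genes may be shared: 13 members overlap a gene on the same strand and 31 one on the opposite strand, and 12 pseudogenes named after members held 72746 counts against 18210282 in the members.

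Samples were grouped by genotype and treatment from their labels. edgeR 4.0.16 fitted 1 mean per group, 4 in all, over the 8 libraries (R 4.3.3; TMM, filterByExpr, 17636 genes kept), with two-sided quasi-likelihood tests in 7 contrasts and Benjamini-Hochberg adjustment over all genes; the threshold was 0.05. The model left 4 residual and 4.36 prior degrees of freedom, and the common biological variation was 28.4%. Each SE is the log2 fold change over the square root of its F value. CPM are scaled by TMM. The procedure was tested on simulated counts. In the WT contrast it recovered 2% of 100 genes changed 2-fold and 78% of 100 changed 4-fold. Of the 86 genes called there, 6 were unchanged. A count of 0 members called therefore cannot show that 2-fold changes were absent. Alternatives were DESeq2 1.42.0, limma-voom (limma 3.58.1), robust quasi-likelihood, other size factors, other filters, the 2 groups alone, each library left out, and library-wise spline offsets (5 degrees of freedom each) for GC content and exonic length.

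The members, lists and alternatives were chosen with earlier results of these data known. Genes named are Setd7; members past the threshold; for each of 5 contrasts the 2 lowest p-values in every complex among members averaging 1 CPM or more; the isoform genes; the most abundant member per kilobase in each complex; untested members; and up to 3 genes per other list. Any other member or gene in the text, such as Ndufs1, Ndufv1, Ndufv2 and Ppargc1a, was chosen after its values were seen. Sequences are from RefSeq. No protein sequences were used. The values of 1 member are not reported here.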

Additional observations from a re-analysis of the deposited data

How the results depend on the processing

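Counts of members called depended on the fit. In the WT comparison edgeR called 0 members with all libraries, 19 with no filter on low counts (5.2% of all genes), 45 when fitted on the 2 groups alone (29.7%), and 0 to 37 when single libraries were left out (20.7% at the highest); DESeq2 called 34 (15.2%). For the interaction the counts were 7 with no filter (5.8%), 24 with DESeq2 (12.9%) and 0 to 36 with a library left out (31.6% at the highest). For isoproterenol averaged over genotypes no filter gave 1 (0.547%) and DESeq2 gave 2 (1.42%). For Set7KO against WT after isoproterenol DESeq2 gave 2 (1.37%) and the 2 groups alone 5 (7.68%). Leaving out libraries gave 0 to 1 in Set7KO (2.66%) and 0 to 3 after saline (5.64%). Other normalizations, robust quasi-likelihood, limma-voom and offsets gave 0 in every contrast. Medians of members kept their sign in every contrast and setting except in Set7KO, where they ran between -0.086 and 0.23 with a library left out. With libraries left out they ran between 0.34 and 0.71 for Set7KO against WT after isoproterenol, -0.28 and -0.014 after saline, and 0.48 and 0.81 for the interaction. With offsets the median of Set7KO against WT after isoproterenol was 0.33, 0.34 without Set7KO saline library 1 and 0.35 without library 2.

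Some members in the Set7KO comparison changed sign. Ndufs4 was at 0.086 with offsets, 0.094 with offsets and without Set7KO saline library 1, and 0.11 with offsets and without library 2. Sdha was at 0.052 with offsets and 0.27 with offsets and without Set7KO saline library 2. With single libraries left out, Sdha ran between -0.40 and 0.26, Sdhc between -0.032 and 0.20, Uqcrb between -1.31 and 0.088, and Uqcrc2 between -1.19 and 0.48; Sdha was at 0.082 without Set7KO isoproterenol library 2. With offsets and without Set7KO saline library 2, Uqcrb was at 0.33 and Uqcrc2 at 0.52, and Sdhb, averaged over genotypes, at 0.016. The cause was not tested. No paired analysis was possible because the labels carry no replicate number shared between groups. With 2 libraries a group, a group left with 1 library was assumed to vary like the others. Depth limits the second Atp5o identifier, at 81 counts in all, Cox6b2, at 17 to 89 counts a library, and the 2 members that were not tested.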
